A study of Mus musculus with 32 samples.

Results

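Transcripts of 10 genes of the circadian clock and its output, Clock, Per1, Per2, Per3, Cry1, Cry2, Nr1d1, Nr1d2, Dbp and Ciart, were followed in mouse brain. They were taken by gene name from a table of read counts for 57010 mouse genes. All 10 were present, and all 10 passed the filter on low counts that left 20298 genes for testing. RNA was sequenced from brain tissue homogenate of 32 humanized APOE mice, 16 male and 16 female, which carried human APOE4 (APOE4/4, here E4/4) or human APOE3 (APOE3/3, here E3/3). From about 10.5 months of age they received D4F, an HDL-mimetic peptide that the design text calls 4F, or PBS (buffered saline) every day for 12 weeks, and tissue was taken at about 13.2 months. The groups were E4/4 D4F, E4/4 PBS, E3/3 D4F and E3/3 PBS, with 8 mice each, 4 male and 4 female. All groups carried a human allele, and the labels do not say which part of the brain was taken. The study asked how APOE genotype and the peptide change transcripts in the brain. The labels give neither the hour at which tissue was taken nor the light cycle, so a difference between groups in the time of collection cannot be told apart from a difference in the level of a rhythmic gene.

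In this clock the proteins CLOCK and ARNTL (BMAL1) form a pair that binds E-box DNA and switches on Per, Cry, Nr1d1, Nr1d2, Dbp and Ciart. The PER and CRY proteins accumulate and repress the same pair, and NR1D1 and NR1D2 (REV-ERB alpha and beta) repress Arntl, so that Arntl transcripts peak at the opposite phase to Dbp, Per and Nr1d1. NPAS2 can take the place of CLOCK in the forebrain, DBP carries the rhythm to output genes through D-box DNA, and CIART (CHRONO) is a further repressor. Most cells of the brain hold this clock, and the suprachiasmatic nucleus of the hypothalamus keeps it on time.

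Promoters of 9 of the 10 genes were found in the RefSeq table on GRCm38.p6 (250 bases before to 50 after each start). Per2 had no entry. They were searched on both strands for the E-box (CACGTG), the E-prime box (CACGTT), the D-box (TTATGNAA) and a short site bound by ROR and REV-ERB proteins (TAGGTCA). The 4 promoters that carried the most matches are shown 5′ to 3′ on the strand of the gene, with each match in capitals. The E-prime box reads AACGTG where it lies on the other strand, and no match of 1 motif overlapped a match of another. The windows are chr3:95882179-95882478 (minus strand) for Ciart, chr4:151044616-151044915 (minus strand) for Per3, chr11:69098699-69098998 (plus strand) for the first of 2 entries of Per1 and chr10:85185005-85185304 (minus strand) for Cry1.
Ciart: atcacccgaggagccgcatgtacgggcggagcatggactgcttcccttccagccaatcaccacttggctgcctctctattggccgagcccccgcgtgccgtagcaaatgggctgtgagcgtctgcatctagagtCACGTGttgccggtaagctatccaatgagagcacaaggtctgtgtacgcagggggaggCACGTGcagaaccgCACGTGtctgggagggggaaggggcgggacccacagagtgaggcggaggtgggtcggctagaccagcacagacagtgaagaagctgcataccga
Per3: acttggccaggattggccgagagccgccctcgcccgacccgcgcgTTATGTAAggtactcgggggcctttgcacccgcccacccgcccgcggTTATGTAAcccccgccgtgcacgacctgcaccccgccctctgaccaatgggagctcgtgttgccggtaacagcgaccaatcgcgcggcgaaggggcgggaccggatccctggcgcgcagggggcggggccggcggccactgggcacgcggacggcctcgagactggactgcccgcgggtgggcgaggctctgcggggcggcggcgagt
Per1: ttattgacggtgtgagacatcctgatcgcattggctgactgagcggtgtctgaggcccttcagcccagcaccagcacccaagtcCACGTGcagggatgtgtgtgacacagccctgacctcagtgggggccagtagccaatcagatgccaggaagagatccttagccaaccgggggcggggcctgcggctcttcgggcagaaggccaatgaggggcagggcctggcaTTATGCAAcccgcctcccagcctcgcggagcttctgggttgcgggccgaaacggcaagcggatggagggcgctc
Cry1: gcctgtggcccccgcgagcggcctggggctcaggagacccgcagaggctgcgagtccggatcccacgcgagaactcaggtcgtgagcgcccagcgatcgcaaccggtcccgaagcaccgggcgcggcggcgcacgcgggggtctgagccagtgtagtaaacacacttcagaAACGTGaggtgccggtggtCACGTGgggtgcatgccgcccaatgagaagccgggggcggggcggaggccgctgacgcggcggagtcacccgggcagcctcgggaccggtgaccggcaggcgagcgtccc

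Ciart held 3 E-boxes, a number reached in 0.0883% of the 32851 promoters of the table, and 7.15% held at least 1. Per3 held 2 D-boxes, which 0.161% of promoters did, against 3.38% with at least 1. The entry of Per1 shown held an E-box and a D-box, and its other entry held no match. Cry1 held an E-box and an E-prime box, a motif found in 4.68% of promoters. Cry2 and Nr1d1 held 1 E-prime box each. No entry of Clock, Nr1d2 or Dbp held any of the 4 motifs in this window, and the short ROR and REV-ERB site, present in 2.61% of promoters, was in none of the members' 12 entries. These matches describe letters in a short window and say nothing of binding.

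The libraries held 17.77 to 45.06 M counts and fell into a lower class of 11 libraries (up to 23.58 M) and a higher class of 21. The lower class held 2 of 8 E4/4 D4F, 1 of 8 E4/4 PBS, 2 of 8 E3/3 D4F and 6 of 8 E3/3 PBS libraries. The slope of a library's log2 CPM on the GC content of its genes, relative to the average library, averaged -0.00669 ± 0.0039, -0.00623 ± 0.00306, 0.00125 ± 0.00685 and 0.0117 ± 0.0115 log2 units per percent GC in those groups (SD, n = 8 each). Depth and GC composition thus moved with the groups, E3/3 PBS standing apart, and the library numbers in the labels form separate ranges for the 2 genotypes. In the vehicle comparison of E4/4 with E3/3, 5 of 5 blood markers and 4 of 8 neuron markers were called lower, and 3 of 4 olfactory bulb markers, 3 of 6 oligodendrocyte markers and 1 of 8 neuron markers were called higher, where 10.5% of all genes were called lower and 9.89% higher. Of the other marker lists, 3 of 4 tested genes of other tissues (Acta1, Alb and Myh4) were lower, astrocyte and endothelium markers had 1 gene called in each direction, choroid plexus markers had Aqp1 and hypothalamus markers Avp called higher, and microglia, cerebellum and striatum markers had none called. Summed blood markers ranged over 3.66 to 15 CPM in E4/4 PBS and 7.66 to 113 CPM in E3/3 PBS libraries, and summed olfactory bulb markers over 4.79 to 137 and 4.75 to 38.2 CPM. The part of these in the results below was not tested, other than for depth and GC content. The tissue had the defining transcripts of brain: the neuronal gene Snap25 averaged 2903 CPM and the myelin gene Mbp 2719 CPM, while the kidney gene Umod was at 0 in all 32 libraries.

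All levels are CPM, read counts scaled to the size of the library after TMM, a normalization that sets the bulk of genes equal between libraries. Levels per kb of exon allow only a rough comparison of genes. The length is the union of exons over all annotated isoforms, so genes with many alternative exons can come out lower. On this scale Nr1d1 was the highest member at 38.1 CPM per kb, followed by Dbp (28.3), Nr1d2 (24.6), Cry2 (23.3) and Per1 (21.5). Per2 (9.44), Ciart (8.84), Per3 (7.13), Clock (5.61) and Cry1 (4.92 CPM per kb) were lower. Each member was well counted, from 235 reads for Ciart in female E4/4 PBS replicate 1 to 7044 for Cry2 in male E4/4 PBS replicate 1, so that counting error was small beside the spread between mice. In bulk tissue fewer cells that express a gene and less RNA per cell cannot be told apart.

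**Figure D1:**
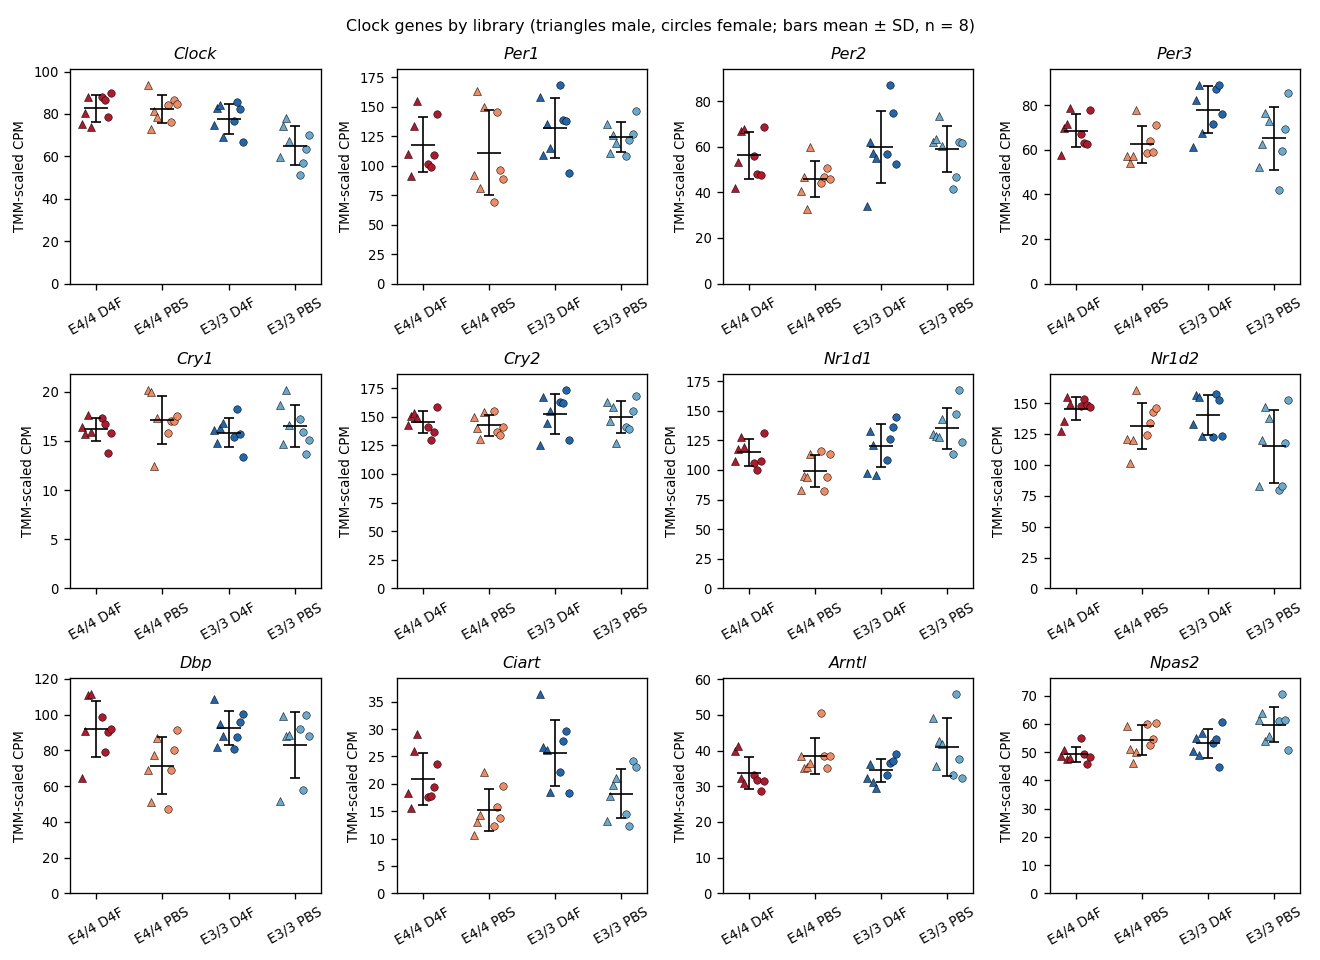
TMM-scaled CPM (linear axes from 0) of the 10 clock and output genes and of their partners Arntl and Npas2 in each library, with E4/4 D4F, E4/4 PBS, E3/3 D4F and E3/3 PBS from left to right. Triangles are male and circles female mice, and bars give the mean ± SD of 8 mice. Clock lies lowest in E3/3 PBS (mean 65.1 CPM) and Nr1d1 lowest in E4/4 PBS (mean 98.8 CPM), while Ciart runs from 10.6 to 36.3 CPM over the 32 libraries.

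The members differed in how much they varied between mice of the same group. Ciart had the largest spread, with a within-group SD of 0.37 log2 units, which lay at percentile 96.6 of 7580 genes with mean levels between those of Cry1 and Cry2. Per1 (0.33, percentile 95.2), Dbp (0.31, percentile 94.6) and Per2 (0.29, percentile 93.3) came next. The nuclear receptor Nr1d2 (0.25) and Per3 (0.24) lay at percentiles 89.4 and 88.2, and Nr1d1 (0.19) at 75.5. Cry1 (0.17, percentile 67.8), Clock (0.14, percentile 49.2) and Cry2 (0.13, percentile 41.9) varied about as much as an ordinary gene, for which the median SD was 0.14. From its lowest to its highest library Ciart differed 3.43-fold, Per2 2.65-fold and Cry2 1.39-fold. When the 8 groups of 4 mice were put in order of their means, each gene had 7 steps between neighbours, and only 1 of these steps over all 10 members was larger than the larger SD of the 2 groups. It was the step in Clock between male E3/3 PBS (69.8 ± 8.17 CPM) and female E3/3 PBS (60.4 ± 8.33 CPM; SD, n = 4 each), the 2 lowest of its groups. Putting means in order makes neighbouring steps small, so this count does not show whether groups farther apart differ.

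The members that no comparison called had levels that overlapped in all 4 combinations of genotype and treatment. Cry2, the steadier of the 2 cryptochrome repressors (chr2:92403646-92434043, GRCm38, minus strand), averaged 145 ± 9.46 CPM in E4/4 D4F, 143 ± 9.15 CPM in E4/4 PBS, 152 ± 17.7 CPM in E3/3 D4F and 150 ± 13.8 CPM in E3/3 PBS mice (SD, n = 8 each). Cry1 (chr10:85131700-85185064, minus strand), the least abundant member in CPM, averaged 16.2 ± 1.19, 17.2 ± 2.44, 15.9 ± 1.45 and 16.5 ± 2.15 CPM in the same order. Neither cryptochrome had an average that stood apart by more than the SD of its groups.

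Per1 (chr11:69095217-69109960, plus strand), a repressor that light, stress hormones and neuronal activity also induce, had a lowest, median and highest level of 91.2, 109 and 155 CPM in E4/4 D4F, 69.5, 94.2 and 163 CPM in E4/4 PBS, 93.8, 136 and 169 CPM in E3/3 D4F and 108, 124 and 146 CPM in E3/3 PBS mice. Its range was widest in E4/4 PBS and narrowest in E3/3 PBS. Per3 (chr4:151003652-151044665, minus strand), the Per gene least needed for rhythm in mice, averaged 68.6 ± 7.53 CPM in E4/4 D4F, 62.4 ± 8.13 CPM in E4/4 PBS, 78 ± 10.6 CPM in E3/3 D4F and 65.1 ± 13.9 CPM in E3/3 PBS mice (SD, n = 8 each). It was highest on average in E3/3 D4F, with every group overlapping the others.

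Genotype was compared first in mice given PBS, where Clock was higher and Nr1d1 lower in E4/4 than in E3/3 brains. Clock (chr5:76209868-76304792, GRCm38, minus strand) encodes the DNA-binding partner of ARNTL, and Nr1d1 the repressor of Arntl. In edgeR's quasi-likelihood test with Benjamini-Hochberg adjustment over all 20298 genes, 1 of 10 members was called higher and 1 lower at an adjusted p below 0.05, against a background of 9.89% of all genes higher and 10.5% lower (20.4% in all). The share of members called was thus near that of all genes. The median log2 fold change of the 10 members was -0.12 and that of all genes 0.02.

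Clock had 84.3, 76.2, 86.6 and 84.9 CPM in female and 93.8, 72.7, 81.4 and 78.7 CPM in male E4/4 PBS mice, against 51, 56.9, 63.5 and 70.3 CPM in female and 59.5, 74.1, 78.2 and 67.4 CPM in male E3/3 PBS mice. All 8 E4/4 libraries lay above the median of the E3/3 libraries and 6 of 8 above the highest of them, so the groups overlapped. The means were 82.3 ± 6.59 CPM in E4/4 PBS and 65.1 ± 9.14 CPM in E3/3 PBS (SD, n = 8 each), a log2 fold change of 0.34 (SE 0.07, adjusted p = 0.000991, edgeR).

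Nr1d1 had 116, 82.3, 93.8 and 113 CPM in female and 83.3, 94.6, 94.1 and 114 CPM in male E4/4 PBS mice, against 113, 147, 168 and 124 CPM in female and 130, 128, 127 and 143 CPM in male E3/3 PBS mice. All 8 E4/4 libraries lay below the E3/3 median and 5 of 8 below the lowest E3/3 library. The means were 98.8 ± 13.6 CPM in E4/4 PBS and 135 ± 17 CPM in E3/3 PBS (SD, n = 8 each), and the log2 fold change was -0.45 (SE 0.0891, adjusted p = 0.000741, edgeR). The exons of Nr1d1 (chr11:98767932-98775333, GRCm38) overlap those of Thra on the other strand over 263 bases, 8.55% of its exon length. Thra, which encodes a thyroid hormone receptor, was also called lower, at 626 ± 40.9 CPM in E4/4 PBS and 762 ± 106 CPM in E3/3 PBS mice (SD, n = 8 each; log2 fold change -0.29, adjusted p = 0.0046, edgeR). The strand setting of the counting is not given in the sources used here, so reads in the shared stretch may belong to either gene.

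The other repressors and outputs were not called in this comparison. Per2 came nearest, with a lowest, median and highest level of 32.9, 46.3 and 60 CPM in E4/4 PBS and 41.6, 61.8 and 73.6 CPM in E3/3 PBS mice. No E4/4 library reached the E3/3 median of Per2, and its log2 fold change was -0.35 (SE 0.137, adjusted p = 0.0675, edgeR). It passed the threshold in a model that held depth class (-0.52, adjusted p = 0.0276), in DESeq2's own test (adjusted p = 0.0384), in a fit of only the groups compared (adjusted p = 0.0354), without female E3/3 PBS replicate 1 (-0.40, adjusted p = 0.0422) and without male E4/4 PBS replicate 4 (-0.43, adjusted p = 0.0277). The remaining 7 members ran from -0.26 for Ciart to 0.19 for Nr1d2. Nr1d2 was called without female E3/3 PBS replicate 4 (0.31, adjusted p = 0.0358), whose 152 CPM was the highest of its group, and ran at -0.15 in the higher-depth libraries alone.

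The calls of Clock and Nr1d1 held in each of 32 fits that left out 1 library, with log2 fold changes of 0.304 to 0.393 for Clock and -0.493 to -0.385 for Nr1d1. Both also passed with depth class as a term (Clock 0.28, adjusted p = 0.0264; Nr1d1 -0.41, adjusted p = 0.0169). With trends on GC content and gene length removed, Nr1d1 stayed near its value at -0.36 (adjusted p = 0.0218). Clock, whose longest transcript holds 40.9% GC, fell to 0.16 (adjusted p = 0.0283), less than its reported value by more than 1.5 times. Within the higher-depth libraries Clock stood at 0.16 (adjusted p = 0.392) and Nr1d1 at -0.37 (adjusted p = 0.157). Within the lower-depth libraries, which held 1 E4/4 PBS library, they stood at 0.53 (adjusted p = 0.226) and -0.31 (adjusted p = 0.613), so neither passed within a depth class.

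**Figure D2:**
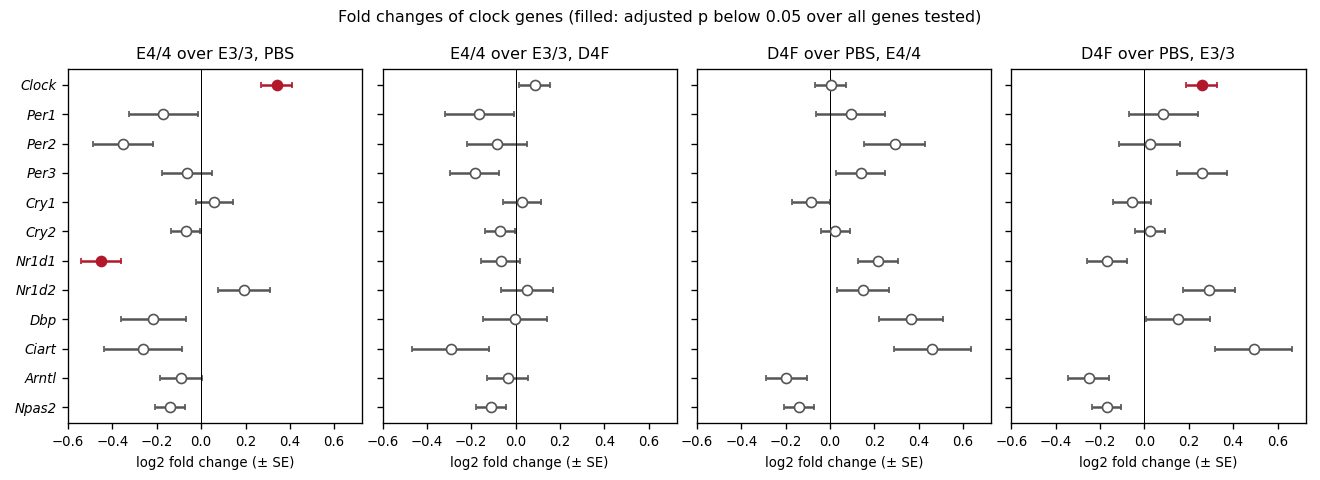
Log2 fold changes ± SE (edgeR) of the 10 members, Arntl and Npas2 for E4/4 over E3/3 under PBS and under D4F and for D4F over PBS in E4/4 and in E3/3, on 1 shared axis. Filled points passed an adjusted p below 0.05 over all genes tested. They are Clock (0.34) and Nr1d1 (-0.45) under PBS and Clock (0.26) for D4F in E3/3, and Ciart has the highest point of both D4F panels (0.46 and 0.49).

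Under D4F none of the 10 members was called between E4/4 and E3/3, 0 of them had an unadjusted p below 0.05 in edgeR, and the background was 0.00493%, a single gene of 20298. DESeq2's own test called 192 genes and none of the members. Clock averaged 82.6 ± 6.25 CPM in E4/4 D4F and 77.7 ± 7.14 CPM in E3/3 D4F mice, and Nr1d1 115 ± 11.1 and 120 ± 18 CPM (SD, n = 8 each). The log2 fold changes were 0.09 for Clock (SE 0.0697, adjusted p = 0.613) and -0.07 for Nr1d1 (SE 0.0889, adjusted p = 0.776). The lowest value was that of Ciart, -0.29 (SE 0.173, adjusted p = 0.461), with 20.9 ± 4.76 CPM in E4/4 D4F and 25.7 ± 6.01 CPM in E3/3 D4F mice.

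D4F was then compared with PBS in E4/4 mice, where no member was called and the background was 0% of genes in edgeR, with 0 genes by DESeq2 and limma-voom too. At an unadjusted p below 0.05, which 382 genes (1.88%) met, Ciart, Dbp, Nr1d1 and Per2 were higher, and each had an adjusted p = 1. Of the 10 members 9 had a value above 0, where 50.8% of all genes did, and their median log2 fold change was 0.14 against 0.0016 for all genes. Several members varied together between mice, so these are not 10 independent observations. In E3/3 mice 8 of 10 members were above 0, where 51.45% of all genes were, with a median of 0.12 against 0.0065. There 4 of 10 members had an unadjusted p below 0.05 in edgeR, which 19.46% of all genes met. The comparisons of genotype under PBS and of D4F in E4/4 share the E4/4 PBS libraries, so an opposite sign in the 2 is not an independent observation.

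Ciart, the repressor with 3 E-boxes, had 17.5, 17.7, 19.4 and 23.6 CPM in female and 18.3, 15.6, 26 and 29 CPM in male E4/4 D4F mice, against 12.2, 15.7, 13.8 and 19.6 CPM in female and 10.6, 13.1, 14.3 and 22.2 CPM in male E4/4 PBS mice. All 8 D4F libraries lay above the PBS median and 3 above the highest PBS library. The log2 fold change was 0.46 (SE 0.174, unadjusted p = 0.0132 and adjusted p = 1, edgeR). Dbp, the output factor, had a lowest, median and highest level of 64.3, 91.4 and 111 CPM in E4/4 D4F and 47.2, 73.1 and 91.5 CPM in E4/4 PBS mice. Of its 8 D4F libraries 7 exceeded the PBS median, and the log2 fold change was 0.37 (SE 0.145, unadjusted p = 0.0178 and adjusted p = 1, edgeR). Nr1d1 reached 115 ± 11.1 CPM in E4/4 D4F, against 98.8 ± 13.6 CPM in E4/4 PBS (SD, n = 8 each; log2 fold change 0.22, SE 0.0889, adjusted p = 1, edgeR), and Per2 56.2 ± 10.4 against 45.9 ± 7.81 CPM (0.29, SE 0.136, adjusted p = 1, edgeR). Clock had a log2 fold change of 0.00357 (SE 0.0696). Arntl and Npas2, the activators of opposite phase, had values of -0.20 (SE 0.0926) and -0.14 (SE 0.0664), also with an adjusted p = 1. Over all 42 alternative fits, the lowest to highest values were 0.335 to 0.585 for Ciart, 0.285 to 1.01 for Dbp, 0.228 to 0.375 for Per2 and 0.00772 to 0.262 for Nr1d1, and none made a call. The highest value of Dbp and the lowest of Nr1d1 came from the lower-depth libraries alone.

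In E3/3 mice Clock was higher under D4F than under PBS, the single member called, against a background of 1.81% of genes called higher and 1.44% lower (3.25% in all). Clock had a lowest, median and highest level of 66.7, 79.4 and 85.5 CPM in E3/3 D4F and 51, 65.5 and 78.2 CPM in E3/3 PBS mice, with overlap between the groups. The log2 fold change was 0.26 (SE 0.07, adjusted p = 0.0373, edgeR). It did not pass in a model that held depth class (0.205, adjusted p = 0.233), after removal of GC and length trends (0.147, adjusted p = 0.0982), in the higher-depth libraries alone (0.12, adjusted p = 1), in the lower-depth libraries alone (0.18, adjusted p = 0.537), in a fit of only the groups compared (0.26, adjusted p = 0.159) or without a filter on low counts (0.26, adjusted p = 0.0563). It also lost its call in 11 of 32 fits that left out 1 library, with adjusted p of 0.0542 to 0.0938. These were female D4F replicates 1 (0.0569), 2 (0.0815) and 3 (0.0793), female PBS replicates 1 (0.0839), 2 (0.0871) and 3 (0.0544), male D4F replicates 2 (0.0556) and 3 (0.0727) and male PBS replicates 1 (0.0938), 2 (0.0542) and 4 (0.069), each with its adjusted p. Over all genes 659 were called in this comparison, with 99 without male E3/3 PBS replicate 1 and 2188 without female E3/3 PBS replicate 4.

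Ciart again had the largest value of the members in E3/3. It had 22.1, 27.7, 29.6 and 18.4 CPM in female and 36.3, 26.7, 26.1 and 18.5 CPM in male E3/3 D4F mice, against 14.4, 12.4, 24.1 and 23 CPM in female and 13.2, 17.8, 19.7 and 21 CPM in male E3/3 PBS mice. The groups overlapped, and the log2 fold change was 0.49 (SE 0.175, adjusted p = 0.107, edgeR), which passed in DESeq2's own test (adjusted p = 0.039) and without female E3/3 PBS replicate 4 (0.56, adjusted p = 0.0495). Within the higher-depth libraries it was 0.24 (adjusted p = 1) and within the lower-depth libraries 0.64 (adjusted p = 0.384). Nr1d2 (0.29, adjusted p = 0.158) and Per3 (0.26, adjusted p = 0.19) were not called in edgeR, and both were called without that same library (0.40, adjusted p = 0.0157, and 0.35, adjusted p = 0.0328). Nr1d2 ran from 122 to 157 CPM in E3/3 D4F mice, against 80.1 to 152 CPM in E3/3 PBS mice, where 3 libraries, female replicates 1 and 2 and male replicate 1, lay at 80.1, 83.1 and 82.8 CPM. Those 3 libraries were of the lower depth class and had GC slopes of 0.0297, 0.0203 and 0.0161, among the 4 highest of all 32. Within the higher-depth libraries alone Nr1d2 had a log2 fold change of -0.04. Nr1d1 had a value of -0.17 (adjusted p = 0.3), and Arntl of -0.25 (adjusted p = 0.118).

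Whether D4F acted differently in the 2 genotypes was tested as an interaction. None of the members and none of all genes (0%) was called in edgeR, and DESeq2's own test and limma-voom called 0 as well, while 2113 genes (10.4%) had an unadjusted p below 0.05. The largest value was that of Nr1d1, whose D4F effect was higher in E4/4 than in E3/3 by 0.38 log2 units (SE 0.126, unadjusted p = 0.00464, adjusted p = 0.283, edgeR), and the lowest that of Clock, at -0.26 (SE 0.0987, unadjusted p = 0.0147, adjusted p = 0.352, edgeR). Ciart, with D4F effects of 0.46 in E4/4 and 0.49 in E3/3, had an interaction of -0.03 (SE 0.246). With an SE of that size the 2 effects cannot be called alike.

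**Figure D3:**
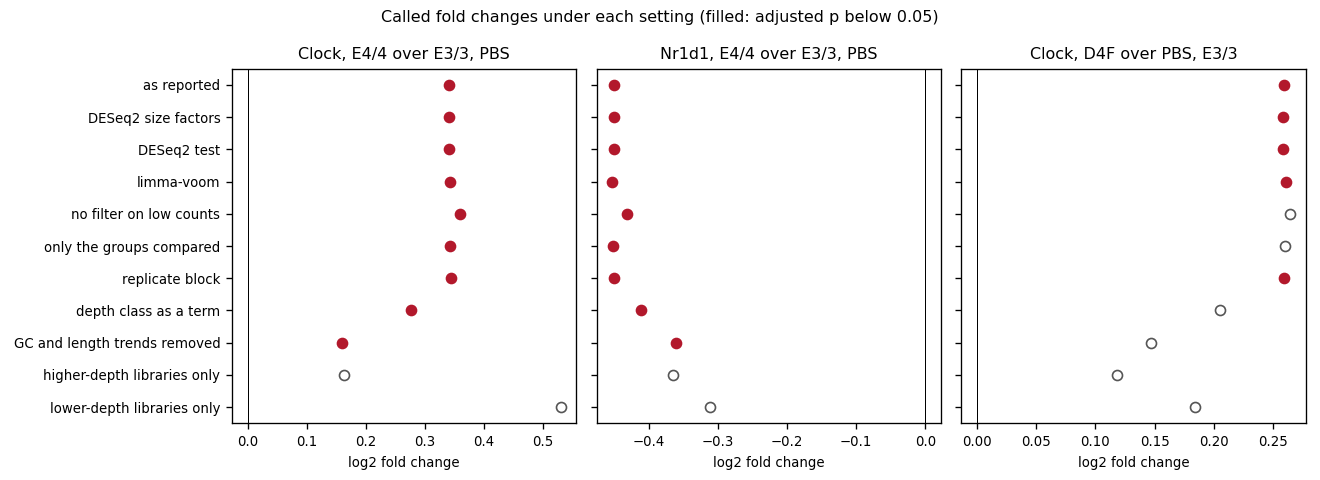
Log2 fold changes of Clock and Nr1d1 for E4/4 over E3/3 under PBS and of Clock for D4F over PBS in E3/3, as reported and under 10 other settings. Each panel has its own axis with a line at 0, and filled points had an adjusted p below 0.05. All points of a panel lie on 1 side of 0, and the genotype panels lose their call only within a depth class.

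No member was called between male and female mice. The background of that comparison was 0.0739% (0.0345% higher and 0.0394% lower in males), 0 of 10 members had an unadjusted p below 0.05, and their log2 fold changes ran from -0.06 for Nr1d1 to 0.08 for Cry1. Within 1 sex, the genotype effect under PBS was -0.46 for Nr1d1 in males (adjusted p = 0.0371, edgeR, 1 of 10 members called lower against 2.53% of genes lower and 3.97% in all) and -0.45 in females (adjusted p = 0.0232, edgeR, with 1 member called lower and 1 higher against 4.71% of genes lower, 5.62% higher and 10.3% in all). For Clock it was 0.23 in males (not called) and 0.46 in females (adjusted p = 0.00546, edgeR), and the difference of -0.23 between the sexes did not pass (SE 0.14, adjusted p = 0.918, edgeR). These within-sex calls rested on 4 mice a group. In females the 2 calls became 1 with depth class as a term and 0 after removal of GC and length trends or in a fit of only the groups compared. In males the 1 call became 0 with depth class as a term, after removal of those trends or without a filter on low counts. In males no member was called without E3/3 PBS replicate 1, 2 or 4, without E4/4 PBS replicate 1, 2 or 3 or without E4/4 D4F replicate 4, in females 1 member was called without E3/3 PBS replicate 2 or 3 or E4/4 PBS replicate 2 or 3, and 3 were called without E3/3 PBS replicate 4. D4F within 1 sex and genotype called no member, with a background of 0.0985% in male E3/3 mice (0.069% higher, 0.0296% lower) and 0% in the other 3 comparisons. The largest value for sex by D4F was that of Per2 in E3/3 mice, where the D4F effect was lower in males than in females by 0.67 log2 units. Per2 had 34.2, 62, 57.4 and 54.8 CPM in male D4F and 62.1, 63.5, 73.6 and 60.4 CPM in male PBS mice, against 57, 87.1, 74.9 and 52.5 CPM in female D4F and 41.6, 46.5, 62.1 and 61.4 CPM in female PBS mice. That value had an unadjusted p = 0.0203 and an adjusted p = 0.976 in edgeR.

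The wider clock was read from 27 further genes, which include activators, kinases, ubiquitin ligases and outputs. Under PBS, 4 of 27 were called higher and 3 lower in E4/4, against 9.89% higher and 10.5% lower among all genes, with a median log2 fold change of 0.01 against 0.02 for all genes. Among those higher were Sirt1, a deacetylase that acts on clock proteins, at 0.45 (adjusted p = 0.00167, edgeR), Nampt, the enzyme of NAD synthesis under clock control, at 0.21, and Prkaa1, a catalytic subunit of AMP kinase, at 0.19. Those lower were Bhlhe40 (DEC1), an E-box repressor, at -0.60 (adjusted p = 0.019, edgeR), Csnk1e, the kinase that marks PER proteins, at -0.24, and Btrc, the ligase subunit that binds marked PER proteins, at -0.23. With GC and length trends removed Nampt and Prkaa1 moved to 0.01 and -0.02 and Csnk1e to -0.13, none of them called. Sirt1 (0.34), Bhlhe40 (-0.61) and Btrc (-0.44) kept their calls there. With depth class as a term Sirt1 (0.266, adjusted p = 0.0453, edgeR) and Bhlhe40 (-0.693, adjusted p = 0.0389) still passed. Btrc (-0.185, adjusted p = 0.109), Nampt (0.179, adjusted p = 0.0609), Prkaa1 (0.206, adjusted p = 0.0609) and Csnk1e (-0.246, adjusted p = 0.0571) did not pass in that edgeR model. Without 1 library, Bhlhe40 lost its call when female E4/4 PBS replicate 2 (-0.516, adjusted p = 0.0509) or male E4/4 PBS replicate 1 (-0.522, adjusted p = 0.0508) was left out, Csnk1e when female E3/3 PBS replicate 2 (-0.199, adjusted p = 0.0518) or male E3/3 PBS replicate 1 (-0.193, adjusted p = 0.0541) was, and Prkaa1 when female E3/3 PBS replicate 1 (0.165, adjusted p = 0.0542) or male E3/3 PBS replicate 2 (0.176, adjusted p = 0.0509) was.

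Of the same 27 genes, D4F in E3/3 mice had 1 called higher, Bhlhe41 (DEC2), a relative of Bhlhe40, at 0.32 (adjusted p = 0.0445, edgeR), and its call held in 16 of 32 fits without 1 library, the others giving an adjusted p of 0.0511 (without female E4/4 D4F replicate 2) to 0.112 (without female E3/3 PBS replicate 2). It was called in 3 of 10 other settings, and not with depth class as a term (0.235, adjusted p = 0.272) or after removal of GC and length trends (0.316, adjusted p = 0.0527). D4F in E4/4 mice and the genotypes under D4F had none called. The activators Arntl and Npas2 were not called in any comparison. Arntl had a lowest, median and highest level of 28.5, 32 and 41.3 CPM in E4/4 D4F, 35.2, 37.5 and 50.4 CPM in E4/4 PBS, 29.6, 34.8 and 39.1 CPM in E3/3 D4F and 32.2, 39.7 and 55.7 CPM in E3/3 PBS mice. It was lowest on average in the 2 groups given D4F, 33.7 ± 4.51 and 34.4 ± 3.32 CPM, against 38.5 ± 5.03 and 41 ± 8.17 CPM in the 2 given PBS (E4/4 and then E3/3; SD, n = 8 each), with all groups overlapping. None of 12 genes that glucocorticoids induce and none of 12 immediate early genes, 2 lists that share control with Per1, was called in any of these 4 comparisons.

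Since mice of 1 group differed widely in several of these genes, it was asked whether the members moved together from mouse to mouse. The mean of each of the 8 groups was removed from log2 CPM, and Pearson's r over 32 libraries was tested by 100000 permutations within groups for the 45 pairs of members and the 10 pairs of a member with Arntl, with Benjamini-Hochberg adjustment over the 55. Of the member pairs 37 had a positive r, with a median of 0.295, and 11 passed, all positive. Of the pairs with Arntl 7 of 10 were negative, and 1 passed. No share over all pairs of genes was computed. These counts therefore do not show that the members moved together more than other genes did. For each member, the rank of its closest other member among all genes compared is given further below. Libraries share depth and composition, which enter both genes of a pair. Each pair that passed is therefore given also within the higher and lower depth classes and with the GC slope removed. Within a class, the mean of each combination of genotype and treatment and a term for sex were removed in place of the 8 group means. The lower class holds only 11 libraries, so its r rests on few mice.

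Per3 and Nr1d2 were the closest pair, with r = 0.858 and Spearman's rho = 0.823 (n = 32, adjusted p = 0.000275 by permutation for r), r = 0.81 without the 2 libraries farthest from the median, 0.791 and 0.762 within the higher and lower depth classes and 0.603 with the GC slope removed. Per2 and Per3 had r = 0.731 (rho = 0.721, adjusted p = 0.000275 by permutation), with 0.693 and 0.713 within the higher and lower classes and 0.613 with the GC slope removed.

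Ciart went with 4 members. With Nr1d2 it had r = 0.722 (rho = 0.738, adjusted p = 0.00371 by permutation), with 0.704 and 0.714 within the higher and lower classes and 0.772 with the GC slope removed. With Per3 it had r = 0.624 (rho = 0.618, adjusted p = 0.0177 by permutation), with 0.91 and 0.277 within the classes and 0.536 with the slope removed. With Dbp it had r = 0.62 (rho = 0.655, adjusted p = 0.0104 by permutation), with 0.656 and 0.707 within the classes and 0.61 with the slope removed. With Per1 it had r = 0.526 (rho = 0.557, adjusted p = 0.0302 by permutation), with 0.392 and 0.508 within the classes and 0.536 with the slope removed. The r of Ciart with Per3 was the one that differed most between the classes, and this difference was not tested.

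Dbp and Nr1d2 had r = 0.58 (rho = 0.495, adjusted p = 0.02 by permutation), with 0.692 and 0.713 within the higher and lower classes and 0.816 with the GC slope removed. Per2 and Cry2 had r = 0.681 (rho = 0.659, adjusted p = 0.00202 by permutation), with 0.602 and 0.305 within the classes and 0.629 with the slope removed. Per2 and Nr1d2 had r = 0.571 (rho = 0.653, adjusted p = 0.0108 by permutation), with 0.523 and 0.473 within the classes and 0.299 with the slope removed. Without the 2 libraries farthest from the median, r of the pairs from Per2 and Per3 to Per2 and Nr1d2 was 0.681, 0.709, 0.612, 0.577, 0.626, 0.53, 0.616 and 0.549, in the order given. Cry1 and Nr1d1 had no pair that passed for r. Nr1d1 and Per3 had r = 0.52 (adjusted p = 0.0575 by permutation), while their rho of 0.539 had an adjusted p = 0.0323 by permutation. Their r was 0.78 and 0.863 within the higher and lower classes, 0.664 with the slope removed and 0.595 without the 2 farthest libraries.

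Clock passed with Nr1d2 (r = 0.709, rho = 0.684, adjusted p = 0.00935 by permutation) and Per3 (r = 0.611, rho = 0.573, adjusted p = 0.0218 by permutation), and with the GC slope removed these were 0.226 and 0.0794. Within the higher and lower depth classes they were 0.434 and 0.817 with Nr1d2 and 0.264 and 0.632 with Per3, and without the 2 farthest libraries 0.615 and 0.482. The levels of 4 members followed the GC slope of the library within groups: Nr1d2 (r = -0.843, rho = -0.823), Per3 (r = -0.775, rho = -0.676), Clock (r = -0.745, rho = -0.691) and Per2 (r = -0.514, rho = -0.509), each with an adjusted p of at most 0.00915 for r by permutation over 12 genes. Without the 2 libraries farthest from the median, their r was -0.767, -0.646, -0.665 and -0.467. Dbp (r = -0.175), Nr1d1 (r = -0.135) and Ciart (r = -0.406) did not pass that test. The longest transcript held 40.9% GC for Clock, 41.8% for Nr1d2, 52.4% for Per3 and 54.3% for Per2, the 4 that passed. Among members that did not pass it held 51.6% for Cry1 (r = -0.063), 52.2% for Ciart and 55.6% for Cry2. For Nr1d1, Per1 and Dbp, which did not pass either, it held 56.8%, 59.4% and 61.6%. The part of a gene's own GC content in these relations was not tested.

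**Figure D4:**
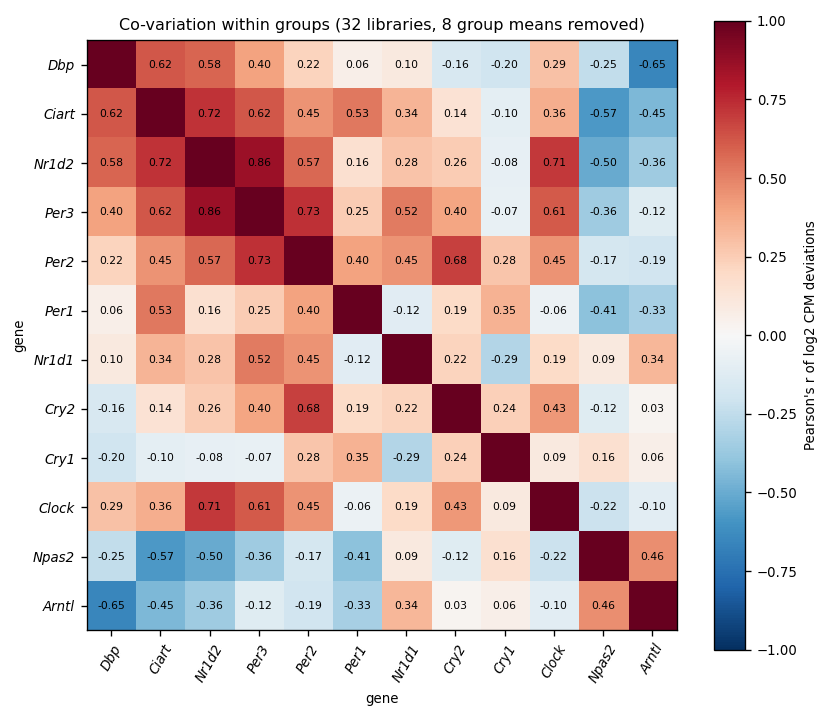
Pearson's r between within-group deviations of log2 CPM for the 10 members, Npas2 and Arntl over 32 libraries, with 8 group means removed, coloured from -1 (blue) to 1 (red). Ciart, Nr1d2, Per3 and Per2 form a red block, with Dbp red against Ciart and Nr1d2, and Arntl is blue against Dbp (-0.65) and red with Npas2 (0.46).

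Dbp and Arntl, transcripts of opposite phase, had the 1 negative relation that passed, with r = -0.651 and rho = -0.555 (n = 32, adjusted p = 0.0198 for r and 0.0323 for rho, by permutation). Without the 2 libraries farthest from the median r was -0.557, with depth class removed -0.682 and with the GC slope removed -0.642. Within the 21 higher-depth libraries r was -0.246, and within the 11 lower-depth libraries -0.843, a difference that was not tested. Female E4/4 PBS replicate 1 was the only E4/4 PBS library of the lower class. It adds nothing to the r of that class, because the mean of its own combination was removed. Female E3/3 PBS replicate 2 had the highest Arntl of all libraries, 55.7 CPM, with 57.6 CPM of Dbp. Female E4/4 PBS replicate 1 had 50.4 CPM of Arntl and 47.2 CPM of Dbp, the lowest Dbp of all, and male E3/3 PBS replicate 1 had 49.1 and 51.4 CPM. These 3 libraries were the highest in Arntl, each had the lowest Dbp of its group of 4, and all were of the lower depth class. The ratio of Dbp to Arntl had a lowest, median and highest value of 1.61, 2.95 and 3.59 in E4/4 D4F, 0.936, 1.99 and 2.38 in E4/4 PBS, 2.25, 2.58 and 3.37 in E3/3 D4F and 1.03, 2.39 and 2.78 in E3/3 PBS mice. The exons of Dbp share 539 bases (18%) with Sphk2 on the other strand. Sphk2 stood at 25.1 ± 1.86 CPM in E4/4 D4F, against 27.2 ± 1.87 CPM in E4/4 PBS (SD, n = 8 each; log2 fold change -0.12, adjusted p = 1, edgeR), a sign opposite to that of Dbp. For D4F against PBS in E3/3 the means also moved oppositely, with Sphk2 at 27.3 against 32.9 CPM and Dbp at 92.3 against 83 CPM. For E4/4 against E3/3 under PBS both were lower, with Sphk2 at 27.2 against 32.9 CPM and Dbp at 71.5 against 83 CPM. The part of the shared stretch in these values was not tested.

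**Figure D5:**
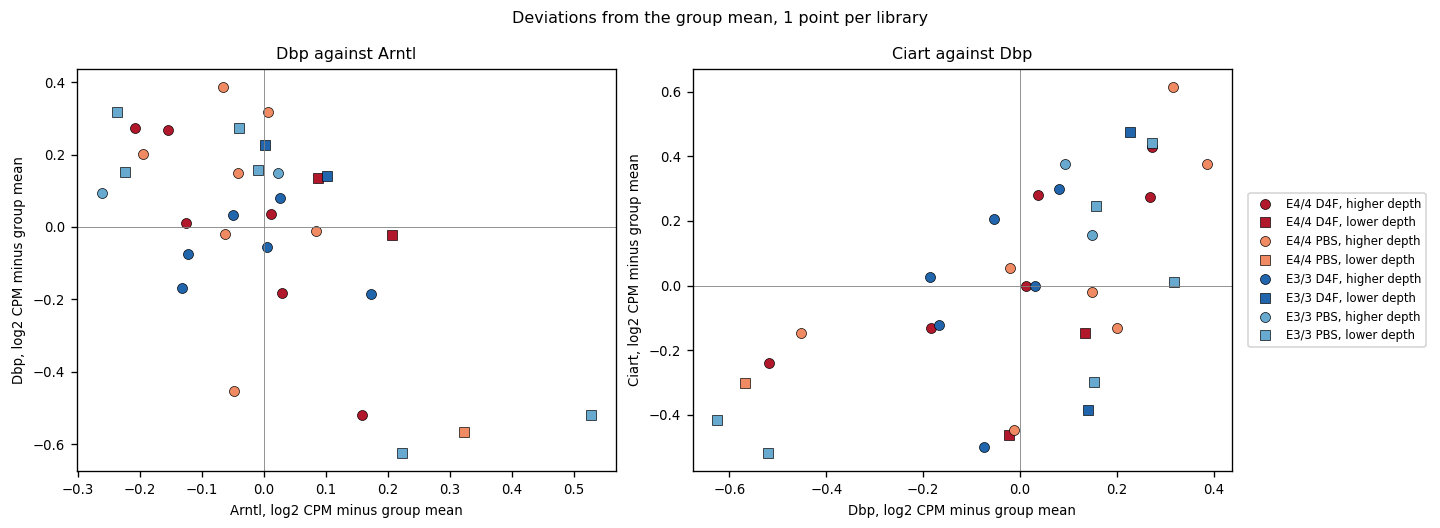
Deviations of log2 CPM from the mean of the group of 4, with 1 point per library, for Dbp against Arntl (left) and Ciart against Dbp (right). Colours give genotype and treatment, and squares are lower-depth and circles higher-depth libraries. Dbp falls where Arntl is high (r = -0.651), with 3 squares at the far lower right, and Ciart rises with Dbp (r = 0.62).

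The genes most like each member over the 32 libraries were sought among 14044 genes whose mean log2 CPM was 1 or more. Clock was most like Taok1 (r = 0.91), Nr1d2 most like Myo9a (0.9), Nr1d1 most like Camta2 (0.886), Per3 most like Hook3 (0.884), Cry2 most like Dcaf7 (0.87), Per2 most like Ccnd2 (0.795), Ciart most like Selenoo (0.776) and Cry1 most like Ppp1cc (0.712). Per1 was most like 1700016P03Rik (0.901), followed by the immediate early gene Nr4a1 (0.879) and by Tiparp (0.837). Dbp had its closest gene in Lrrc10b (0.739) and its most opposite one in Depdc5 (-0.762). A member of the clock ranked high in 3 of these lists: Nr1d2 was the gene of rank 6 for Per3 and of rank 7 for Ciart, and Per3 that of rank 9 for Per2. In the other lists the best-ranked member lay at 25 (Nr1d2), 46 (Dbp), 175 (Cry2), 211 (Per1), 372 (Clock), 675 (Cry1) and 1601 (Nr1d1). Some pairs that passed the permutation test ranked far down. Per3 lay at 873 for Clock, and Clock at 932 for Per3. Dbp lay at 1073 for Nr1d2, but Nr1d2 at 99 for Dbp. Per2 lay at 1144 for Nr1d2, and Nr1d2 at 367 for Per2. The ranks and the r values of these lists carry no test. They describe the libraries, which share depth and composition.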

How the data were processed

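Total RNA from brain homogenate of 32 mice was made into stranded mRNA libraries and sequenced as paired reads of 150 bases, per the labels. The deposited values are raw counts of reads per gene name. Trimmomatic, HISAT2 and featureCounts and the build GRCm38 are named in the submitters' processing notes; the sources used here give no versions, annotation or strand setting. The table held 57010 rows, 150 of which repeat a name, and no row without a gene name was used. The analysis used edgeR 4.0.16 under R 4.3.3: filterByExpr (minimum count 10, minimum total 15), TMM, robust quasi-likelihood fits with 1 coefficient for each of 8 groups, and 17 contrasts that average the sexes unless one is named. P-values are two-sided and adjusted over all genes tested, and SE stands for standard error. CPM uses TMM-scaled library sizes; log2 CPM adds a prior count of 2.

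The 10 members, the lists and the tests were chosen with earlier results of these data known. The text names all members, Arntl, Npas2, called genes of the wider clock list (1 of which is not reported here), overlapping genes and, for each member, the genes of highest correlation. Where the rule gave several such genes, the first is printed for most members. Alternatives were DESeq2 1.42.0 (size factors and test), limma 3.58.1 (voom), no filter, only the groups compared, depth class (divided at 26 M counts), GC and length trends removed, a replicate block, and each library left out. Removing the GC slope from the correlations was added after seeing the data. Coordinates and GC content come from GENCODE M21 on GRCm38, with GC for 94.6% of tested genes, and promoters from RefSeq on GRCm38.p6. GC content is that of a gene's longest transcript, and exon length is the union over its isoforms. The model was tested on simulated data. Same-numbered libraries of different groups did not deviate together on average (mean correlation 0.00389, 25 of 112 pairs above 0.1, highest 0.322). That mean runs over all pairs of groups, so it cannot exclude pairing between particular groups. The main model pairs no samples. Nothing says how mice were housed or collected; each library is 1 mouse. Depth sets the counting error, which is small for these genes.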

Additional observations from a re-analysis of the deposited data

Results flagged for a closer look

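Of 80 groups of 4 libraries checked, 1 held a library far from the others. Per3 stood at 77.7 CPM in male E4/4 PBS replicate 4, against 54.1 to 57.3 CPM in the other 3 males of that group, a gap of 0.862 of the group's range, above Dixon's 95% critical value for 4 samples. Chance flags about 1 in 20 groups. The library was of the higher depth class (33.1 M counts), and it also had the highest Per2 (60 CPM), Nr1d2 (161 CPM), Dbp (86.7 CPM), Ciart (22.2 CPM) and Nr1d1 (114 CPM) of its group. Without it, the log2 fold change of Per2 for E4/4 over E3/3 under PBS was -0.43 (adjusted p = 0.0277, edgeR), against -0.35 (adjusted p = 0.0675) with it.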

How the results depend on the processing

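Counts of called members changed as follows. For E4/4 over E3/3 under PBS, 2 members became 0 within the higher-depth and 0 within the lower-depth libraries, became 3, with Per2, in a model with depth class, by DESeq2's own test, with only the groups compared and with the replicate block, and stood between 2 and 3 when 1 library was left out. For D4F in E3/3, 1 became 0 with depth class as a term, 0 with GC and length trends removed, 0 within either depth class, 0 without a filter, 0 in a fit of only the groups compared and 2 by DESeq2's own test, and lay between 0 and 4 when 1 library was left out. For genotype in female PBS mice, 2 became 1 with depth class, 0 with GC and length trends removed and 0 with only the groups compared (1 to 3 without 1 library). For genotype in male PBS mice, 1 became 0 with depth class, with GC trends removed and without a filter (0 to 1 without 1 library). For D4F in female E3/3, 0 members became 2 without female E3/3 PBS replicate 4.

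Signs turned only for values not called. With GC and length trends removed these were Cry2 for genotype under PBS (0.0292), Cry1 (-0.00323), Nr1d2 (-0.0392) and Dbp (0.0761) for genotype under D4F and Clock (-0.0122) for D4F in E4/4. In the higher-depth libraries they were Cry1 (-0.00431) and Nr1d2 (-0.154) for genotype under PBS, Cry1 (-0.0108) and Dbp (0.0568) under D4F, Clock (-0.00448) for D4F in E4/4 and Per1 (-0.0135), Nr1d2 (-0.0374), Per2 (-0.0389) and Cry2 (-0.011) for D4F in E3/3. In the lower-depth libraries they were Cry2 (0.11) for genotype under PBS, Per2 (0.326) and Cry2 (0.197) under D4F, Cry1 (0.014), Clock (-0.0855) and Cry2 (-0.107) for D4F in E4/4 and Per2 (-0.365) and Cry2 (-0.195) for D4F in E3/3. With depth class as a term they were Per1 (-0.0451), Per2 (-0.125) and Cry2 (-0.032) for D4F in E3/3. Without a filter they were Dbp for genotype under D4F (0.000888) and Clock for D4F in E4/4 (-0.0105), and Clock also with DESeq2 size factors (-5.27e-05) and DESeq2's test (-0.000138). Over the 32 fits without 1 library, values crossed 0 for Clock (-0.0238 to 0.0386) and Cry2 (-0.00635 to 0.047) for D4F in E4/4, Dbp (-0.042 to 0.0762) and Cry1 (-0.00123 to 0.0743) for genotype under D4F, Per3 (-0.141 to 0.0363) for genotype under PBS and Cry2 (-0.0109 to 0.0716) and Per2 (-0.0434 to 0.105) for D4F in E3/3. The causes were not tested.

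The main model does not use replicate numbers to pair samples. A fit with the replicate block gave Clock 0.34 (adjusted p = 0.00126), Nr1d1 -0.45 (adjusted p = 0.000718) and Per2 -0.35 (adjusted p = 0.0444) for genotype under PBS and Clock 0.26 (adjusted p = 0.0423) for D4F in E3/3, and all genes called numbered 4067 and 604, against 4137 and 659 without it. All genes called for genotype under PBS numbered 1286 with depth class as a term, 2614 with GC and length trends removed, 42 in the higher-depth and 0 in the lower-depth libraries. For D4F in E3/3 they numbered 0 with depth class, 1353 by DESeq2, 367 without a filter, 0 within either depth class and 0 with only the groups compared. Pairs of genes that passed the correlation test numbered 10 to 14 under the alternatives, against 12. The lower-depth class holds 1 E4/4 PBS library, which is assumed there to vary like the others.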
